A study of Homo sapiens with 14 samples.

Results

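Peaks of the histone methyltransferase KMT2D around the epidermal growth factor receptor gene EGFR and 4 genes of its ligands, EREG, AREG, TGFA and HBEGF, were taken from 1 ChIP-seq peak list. The list came from SCC23, an established human cell line of head and neck squamous cell cancer (HNSCC). The cells were KMT2D-WT and were deprived of glucose, which the label calls a low glucose condition and for which it gives no duration. The study labelled 14 samples, among them an input of KMT2D-WT cells and libraries for histone H3 and its marks in KMT2D-WT and KMT2D-KO cells, all in the same glucose condition, and the 13 others were not analysed here. A peak was a member when its summit lay within 50 kb of 1 of the 5 genes in GRCh37 (hg19), the build of the list. There were 30 such peaks among 13808, with 1 library and no replicate, so that no genotype, glucose condition or antibody could be compared. Intervals are at the 95% level and cover counting error only.

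EGFR is a receptor tyrosine kinase of the ErbB family that drives the growth of squamous epithelium and is often highly expressed in HNSCC. Its ligands are made as precursors anchored in the membrane, are shed by ADAM proteases, and bind the receptor of the same or a neighbouring cell, which then signals through the MAPK and PI3K pathways. KMT2D places mono-methylation on lysine 4 of histone H3, mainly at enhancers, where it acts together with the acetyltransferases CBP and p300. A KMT2D peak shows where the antibody pulled down DNA and not whether the gene nearby was transcribed.

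KMT2D peaks were found around all 5 genes, and the strongest peak of each gene lay away from its start. Fold enrichment was the ratio of scaled ChIP signal to local background at the summit, with 1 added to both, which makes it lower than the plain ratio. It reached 13.6 inside EGFR, 12.8 inside TGFA, 11.0 downstream of HBEGF, 7.39 inside EREG and 4.54 upstream of AREG. The starts of EGFR, AREG, TGFA and HBEGF each carried a peak of lower fold enrichment, and the start of EREG carried none. At AREG the intervals of start peak and strongest peak overlapped. Only 4 peaks lay at a start and 26 elsewhere, so the position of the strongest peaks is a description. By the nearest gene, 14 peaks belonged to EGFR, 3 to EREG, 4 to AREG, 4 to TGFA and 5 to HBEGF. EREG and AREG are neighbours on chromosome 4, and 4 of their 7 peaks lay within 50 kb of both and were counted once.

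**Figure D1:**
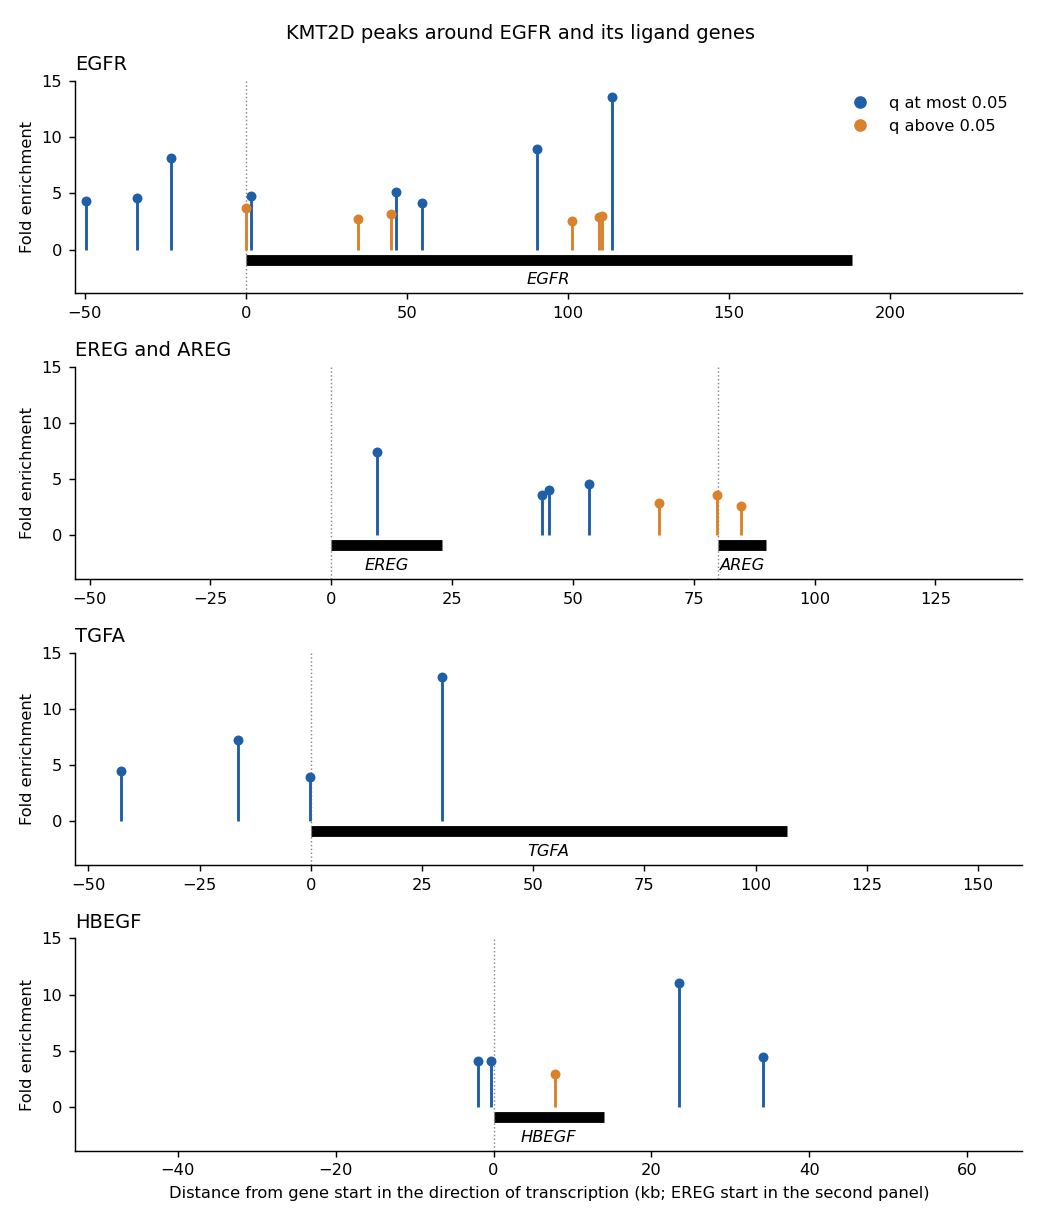
Fold enrichment (vertical axis) of the 30 KMT2D peaks against the distance of the summit from the gene start in kb, along the direction of transcription; each stem is 1 peak, coloured by its q-value, and black bars are the genes. The tallest stems lie at 114 kb in EGFR, 9.43 kb in EREG, 29.4 kb in TGFA and 23.5 kb in HBEGF, while stems at the dotted gene starts stay between 3.56 and 4.11.

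Peaks were crowded at these genes. The windows of 50 kb to either side of the genes added up to 799 kb and held 37.5 peaks per Mb (Poisson interval 25.3 to 53.6), against 4.48 per Mb in the rest of chromosomes 1 to 22 and X, a ratio of 8.38 (5.65 to 12.0). The ratio to the rest of the same chromosome was 11.3 at EGFR on chromosome 7 (6.15 to 19.1), 14.1 at EREG and AREG on chromosome 4 (5.64 to 29.3) and 13.1 at HBEGF on chromosome 5 (4.25 to 30.9). It was lowest at TGFA on chromosome 2, with 4.24 (1.15 to 10.9). The 4 intervals overlapped one another, so no order among the loci could be given. The genes were chosen with earlier results of the list known, and peaks that lie together are not independent, so these intervals are too narrow. Each chromosome was counted from its first to its last peak, and the reference was not matched for gene content. Between 200 and 500 kb from these genes the density was 11.7 per Mb (7.75 to 16.9), also above that reference.

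**Figure D2:**
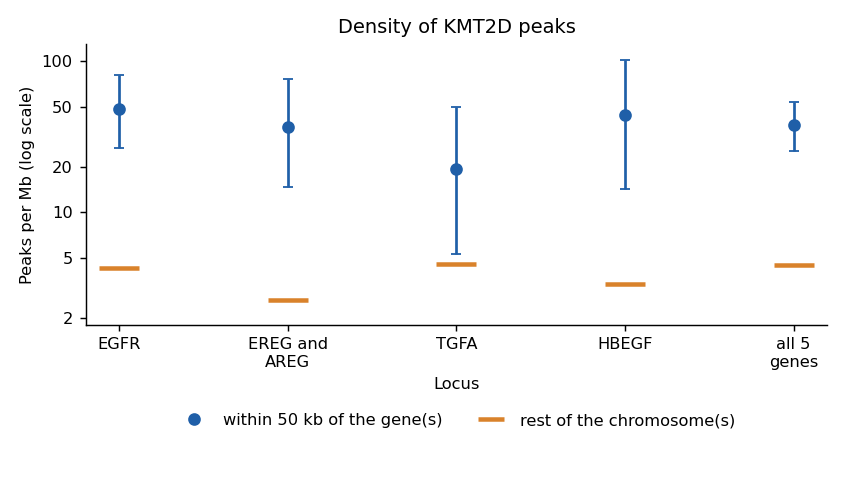
KMT2D peaks per Mb on a log scale within 50 kb of each locus (points, with Poisson intervals) and in the rest of the same chromosome (bars; for all 5 genes, the rest of chromosomes 1 to 22 and X). Every point lies above its bar, from 19.3 against 4.55 at TGFA to 48.6 against 4.30 at EGFR.

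KMT2D peaks were present at most of the gene starts and were of about the height usual for the list. Gene positions were known to the nearest kb, and a peak was placed at a start when its summit lay within 1 kb of it. This was so for 4 of the 5 genes. The share of all genes with such a peak was not computed, since no GRCh37 annotation was at hand, so this count cannot be read against the list as a whole. The EGFR start peak at chr7:55086509-55088147 had a fold enrichment of 3.66 (2.38 to 5.47) with 19 ChIP fragments over the summit and was the widest of all 30 peaks, at 1639 bp. A further EGFR peak at chr7:55088343-55088672, with its summit 1.45 kb into the gene, had 4.72 and 28 fragments. The TGFA start peak at chr2:70780574-70781365 had 3.93 and 19 fragments. The HBEGF start peak at chr5:139726189-139726408 had 4.11 and 20 fragments, and a companion at chr5:139727849-139728099, 1.90 kb upstream, had 4.07 and 22. At AREG the peak at chr4:75310671-75310946 had 3.56 and 17 fragments. The 4 start peaks thus lay within a narrow range of 17 to 20 fragments, below the median of 25 over all peaks. In fold enrichment they were near the median of all peaks, 3.93: 42.3% of the list was lower than the EGFR start peak, 38.3% lower than that of AREG, 48.9% lower than that of TGFA and 53.3% lower than that of HBEGF. Their q-values, the false discovery rates given by the peak caller, were 0.0395 at TGFA and at HBEGF, 0.0787 at EGFR and 0.217 at AREG. With a q-value of at most 0.05 required, 2 of the 5 genes kept a start peak.

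The sequence before these starts is shown because it is the promoter over or beside which the start peaks lay, with EREG for contrast. The 250 bases before each RefSeq start in GRCh38.p14 are given 5′ to 3′ on the strand of the gene. Capitals mark matches, on either strand, to GGGCGG (the SP/KLF box), CCAAT (NF-Y), TATAAA (the TATA box) and GGAATG (TEAD); TGANTCA (AP-1) and CACGTG (the E-box) were searched as well. EGFR is at chr7:55018767-55019016 (plus strand), TGFA at chr2:70553827-70554076 (minus), HBEGF at chr5:140346604-140346853 (minus), AREG at chr4:74444886-74445135 (plus) and EREG at chr4:74364895-74365144 (plus). These coordinates are of another build than the peaks and cannot be set against them.
EGFR: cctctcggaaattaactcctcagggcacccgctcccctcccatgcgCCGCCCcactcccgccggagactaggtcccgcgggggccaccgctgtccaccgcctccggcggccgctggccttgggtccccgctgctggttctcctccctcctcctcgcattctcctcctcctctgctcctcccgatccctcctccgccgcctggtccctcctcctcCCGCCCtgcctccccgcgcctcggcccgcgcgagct
TGFA: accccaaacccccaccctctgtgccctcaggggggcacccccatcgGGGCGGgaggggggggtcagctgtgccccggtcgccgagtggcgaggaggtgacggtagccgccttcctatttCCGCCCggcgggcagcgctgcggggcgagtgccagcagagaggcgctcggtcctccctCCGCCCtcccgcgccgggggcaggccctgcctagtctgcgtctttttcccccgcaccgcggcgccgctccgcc
HBEGF: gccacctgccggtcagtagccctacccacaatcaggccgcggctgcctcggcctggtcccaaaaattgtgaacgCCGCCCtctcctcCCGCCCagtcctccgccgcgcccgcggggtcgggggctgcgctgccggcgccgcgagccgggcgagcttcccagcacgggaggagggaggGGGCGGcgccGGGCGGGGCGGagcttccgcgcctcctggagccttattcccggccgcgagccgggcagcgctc
AREG: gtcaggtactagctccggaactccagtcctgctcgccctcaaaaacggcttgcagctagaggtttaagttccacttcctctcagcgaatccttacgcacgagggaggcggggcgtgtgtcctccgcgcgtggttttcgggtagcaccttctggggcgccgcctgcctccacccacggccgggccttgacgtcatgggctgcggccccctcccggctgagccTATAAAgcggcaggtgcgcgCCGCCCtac
EREG: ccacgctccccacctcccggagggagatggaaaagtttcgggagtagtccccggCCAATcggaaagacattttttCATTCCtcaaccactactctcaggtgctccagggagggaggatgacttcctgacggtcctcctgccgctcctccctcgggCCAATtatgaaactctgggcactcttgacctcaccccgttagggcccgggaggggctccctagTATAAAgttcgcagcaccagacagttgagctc

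EGFR, TGFA and HBEGF had a GC content of 73.6%, 75.6% and 76.4%, with 2, 3 and 5 matches to GGGCGG and no TATA box. Among the HBEGF matches, 2 overlapped. AREG (65.2% GC) and EREG (58.0%) had TATAAA 29 and 32 bases before the start, a box that 10.7% of the 35116 RefSeq promoters of this length held. GGGCGG, held by 42.6% of them, matched once in AREG and not in EREG. EREG alone held CCAAT, with 2 matches (32.0% of promoters), and GGAATG, with 1 match (11.9%). TGANTCA (6.57%) and CACGTG (6.34%) matched in none of the 5 windows. Of the 35116 promoters, 49.1% had a lower GC content than EREG and 67.6% a lower one than AREG. For EGFR, TGFA and HBEGF this share was 86.9%, 90.7% and 91.9%. EREG, the gene with no start peak, thus had the lowest GC content of the 5, though one near the middle of all promoters. With 5 genes this is a description.

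EGFR, the receptor, had most peaks. Of its 14, 1 was at the start, 3 lay upstream and 10 inside the gene. No peak lay in the last 74.3 kb of the 188 kb gene or in the 50 kb beyond it, and the next peak on that side was 233 kb away from the last member. All peaks inside the gene lay in its first 60.5%. This 5′ part of EGFR is known to hold a very long first intron, but exons were not assigned to single peaks because the annotation used here was of another build.

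The strongest EGFR peak was at chr7:55200281-55201810, 114 kb from the start, with a fold enrichment of 13.6 (10.9 to 16.8). It was 1530 bp wide, had 83 fragments (66.1 to 102.9), the most of the 30 peaks, and ranked 147th of 13808 by fold enrichment. The second was at chr7:55177049-55177625, 90.2 kb from the start, with 8.99 (7.12 to 11.2) and 73 fragments. The third lay 23.2 kb upstream of the gene at chr7:55063364-55063985, with 8.12 (6.13 to 10.6) and 50 fragments. These 3 stood above 98.9%, 93.7% and 91.5% of all peaks of the list. The intervals of the strongest peak and of the start peak did not overlap.

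The other EGFR peaks were of middle or low height. Stitching peaks over gaps of up to 12500 bp joined 4 of them into a run of 20.5 kb at chr7:55121506-55141984, where the highest fold enrichment was 5.10, at a summit 46.5 kb into the gene with 51 fragments. A second run of 24.8 kb at chr7:55177049-55201810 held 5 peaks, among them the strongest and the second strongest of the gene. The 3 peaks between those had 2.54, 2.94 and 2.997, with 12, 15 and 21 fragments and a q-value of 1. The summits nearest to each other across the 2 runs were 35.4 kb apart. At a q-value threshold of 0.05, 8 of the 14 EGFR peaks passed.

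The upstream side of EGFR reached the edge of the 50 kb window inside a group of peaks. The outermost member, at chr7:55036707-55037479 and 49.7 kb from the gene, had a fold enrichment of 4.33 with 29 fragments. The next peak, at chr7:55034802-55035596 and 51.8 kb from the gene, had 15.01 with 99 fragments and was not a member, although it exceeded every member in both values. These peaks and another one formed a run of 8.36 kb. The next protein-coding gene on this side in the RefSeq order is SEC61G, a subunit of the protein translocation channel of the endoplasmic reticulum. To which gene the run belongs was not tested.

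TGFA encodes transforming growth factor alpha, a high-affinity EGFR ligand made by epithelial cells. Its strongest peak lay inside the gene, 29.4 kb from the start, at chr2:70751293-70752557. Fold enrichment was 12.8 (10.1 to 16.1) with 68 fragments, the peak was 1265 bp wide, and its rank was 190th. A peak 16.4 kb upstream at chr2:70796903-70797631 had 7.20 (5.21 to 9.74) with 37 fragments. Another at chr2:70823518-70823712, 42.6 kb upstream on the side of ADD2, a gene of the membrane skeleton, had 4.44 with 27 fragments. The strongest peak had an interval above that of the start peak (2.55 to 5.87). No peak lay in the remaining 77.6 kb of the gene. The 4 TGFA peaks were spaced by 16.2 kb or more, so that none joined a run, and all 4 passed a q-value threshold of 0.05.

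HBEGF encodes heparin-binding EGF-like growth factor, whose precursor is also the receptor of diphtheria toxin. Its strongest peak lay outside the gene, 9.49 kb beyond its 3′ end and 23.5 kb from the start, at chr5:139702191-139703314. Fold enrichment was 11.0 (8.48 to 14.1) with 58 fragments over 1124 bp, and its rank was 406th. Its interval did not overlap that of the start peak (2.70 to 6.09). A second downstream peak at chr5:139691746-139692014 had 4.49 with 23 fragments. The next protein-coding gene on the downstream side in the RefSeq order is PFDN1, and to which gene these peaks belong was not tested. HBEGF itself held 1 peak, at chr5:139718071-139718325, with 2.94, 15 fragments and a q-value of 1, the only HBEGF peak above a q-value of 0.05. This peak, the start peak and its companion formed a run of 10.0 kb.

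EREG encodes epiregulin, a low-affinity ligand that also acts through ERBB4. Its strongest peak was inside the gene, 9.43 kb from the start, at chr4:75240121-75241230, and 1110 bp wide. It had 75 fragments (59.0 to 94.0), the second highest number of the 30 peaks, and a fold enrichment of 7.39 (5.86 to 9.19). No other peak lay inside EREG or upstream of it: the next peak on that side was 256 kb from the gene. The next protein-coding gene there is EPGN, which encodes the further EGFR ligand epigen.

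AREG encodes amphiregulin, another low-affinity ligand. Between EREG and AREG a run of 9.81 kb at chr4:75274467-75284271 held 3 peaks with 3.58, 4.06 and 4.54 and 35, 40 and 29 fragments, each with a q-value of at most 0.01. The third of these, 26.8 kb upstream of AREG, was the strongest that fell to AREG, at 4.54 (3.17 to 6.36). Its interval overlapped that of the AREG start peak (2.28 to 5.42), so that at AREG, unlike the other 3 genes with a start peak, no peak stood clear of the start. The start peak, a peak 12.1 kb upstream (2.84, 13 fragments) and a peak 4.85 kb into the gene (2.62, 18 fragments) formed a run of 17.2 kb in which no peak reached a q-value of 0.05. The 7 peaks of EREG and AREG spanned 75.4 kb, with the previous peak of the chromosome 265.5 kb before the first and the next one 138 kb after the last. Peaks were called from uniquely mapped reads only, and how much of the AREG locus such reads can cover was not tested.

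**Figure D3:**
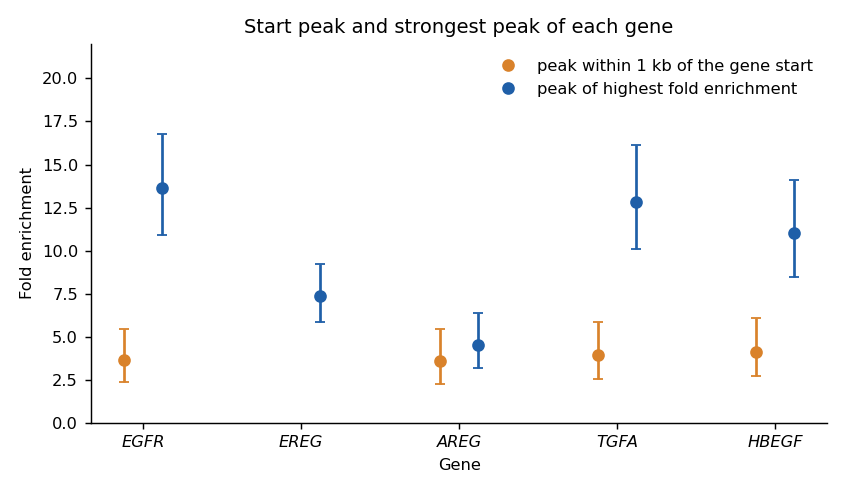
Fold enrichment of the peak within 1 kb of the gene start and of the strongest peak of each gene, with intervals from the ChIP fragments. Strongest and start peaks are apart at EGFR, TGFA and HBEGF and overlap at AREG; EREG has no peak at the start.

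At 3 of the 4 genes with a start peak the strongest peak was apart from it. The strongest peak is the highest of 4 to 14 and was picked for its height, which the intervals do not take into account. The strongest peaks of EGFR, TGFA, HBEGF and EREG were all wider than 1000 bp. The other 2 such peaks were the EGFR start peak and the peak 46.5 kb into EGFR (1453 bp). In all, 6 of 30 peaks (20%, Wilson interval 9.51 to 37.3%) passed this width, against 5.48% of the whole list.

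Local background at the summits, estimated from the control, was unequal among the genes. It was at least 2 times the genome-wide level at 5 of 14 EGFR peaks and at 3 of 3 EREG peaks, and at 0 of 4, 0 of 4 and 0 of 5 peaks of AREG, TGFA and HBEGF (15.2% of peaks of chromosomes 1 to 22 and X). It was 2.74 times that level at each EREG peak and between 1.09 and 2.85 times at EGFR. The strongest peaks of EGFR and TGFA had 1.27 and 1.00 times. With 75 fragments the EREG peak therefore had a lower fold enrichment than the TGFA peak with 68. The genome-wide level corresponds to 1.096 control fragments at a position, so the local background rests on few reads, and its own error is not in the intervals. The part of the raised background in these fold enrichments was not tested.

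Height set the 30 peaks little apart from the list as a whole. Their median fold enrichment was 4.12 (range 2.54 to 13.6), against 3.93 over all peaks, and their median number of fragments 27.5, against 25. At a q-value threshold of 0.05, 20 of the 30 passed (66.7%, with a Wilson interval of 48.8 to 80.8%), as did 58.5% of the list. At 0.01 there were 17 (56.7%, 39.2 to 72.6%), and 47.7% of the list. The highest 10.0% of the list by fold enrichment, above 7.72, held 5 of the 30 (16.7%, 7.34 to 33.6%). They were the 3 strongest EGFR peaks and the strongest of TGFA and HBEGF. The intervals of these 3 shares included the share of the list, while that of the width given above did not. The interval for spacing did not either: 19 of 30 peaks (63.3%, 45.5 to 78.1%) were part of a run of at least 3 peaks, against 33.8% on chromosomes 1 to 22 and X. Of these, 10 were at EGFR, 2 at EREG, 4 at AREG, 3 at HBEGF and 0 at TGFA. Membership by windows around a gene favours peaks that lie together, so this share is a description. Peaks that lie together in 1 library are not independent, so the Wilson intervals are too narrow. The width share is likewise a description, with 3 of the 6 wide peaks at EGFR.

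**Figure D4:**
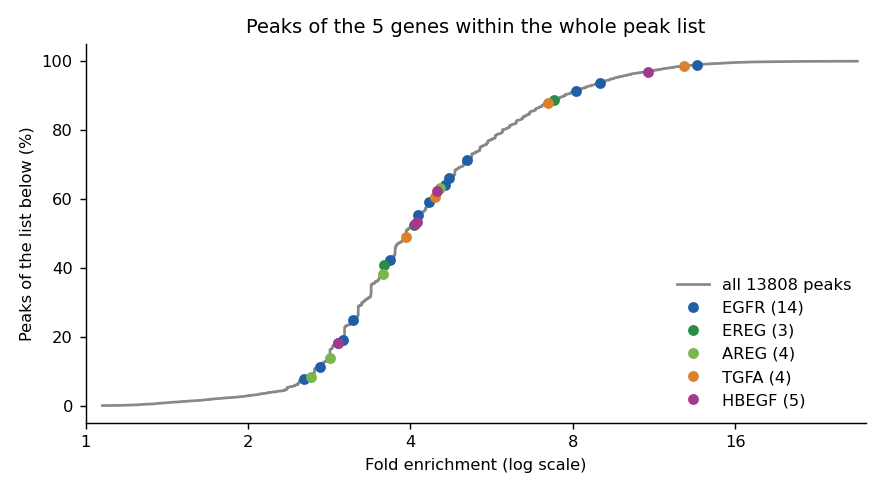
Share of all 13808 peaks with a lower fold enrichment (vertical axis, %) against fold enrichment on a log scale; the line is the whole list and the points are the 30 peaks, coloured by nearest gene. The points run along the whole line, from 7.73% to 98.9%, with AREG peaks no higher than 63.1%.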

How the data were processed

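KMT2D ChIP-seq of 1 KMT2D-WT library was analysed as the peak list the authors deposited. Bowtie2 was used by the authors to map reads to GRCh37 (hg19), and they called peaks from uniquely mapped reads with MACS2 at p below 0.01; the control is not named. The deposited fold enrichment is the ratio of scaled ChIP pileup to local background at the summit, after a pseudocount of 1 is added to each. The p-value and the q-value were deposited as −log10 values, and the deposited score is the whole part of 10 times the −log10 p.

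The number of ChIP fragments at a summit and its local background were recovered from fold enrichment and p, which MACS2 derives from the same pair of values (scale 0.381, genome-wide background 1.096 control fragments, or 2.88 at the depth of the ChIP library). Only whole numbers of fragments were tried, and over all 13808 peaks the best one left a gap in −log10 p of at most 0.00833. On 3 lists simulated with the same formula, the smallest of 10097 peaks, 100.0% of fragment numbers were recovered. This checks the recovery and not whether the deposited list follows the formula. Each interval of fold enrichment is that of the fragments (exact Poisson) put through the same ratio. Ratios of densities have exact conditional intervals. The library total is not known from the list.

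Gene spans were those of the membership rule, to the nearest kb. Strands and promoters came from RefSeq (GRCh38.p14), where all 5 genes matched, and the outermost start was used where 2 were listed. No GRCh37 annotation was at hand, so exons were not assigned, and the 9 other pathway genes on the list (EPGN, BTC, ERBB2, ERBB3, ERBB4, ADAM10, ADAM17, ERRFI1, LRIG1) were not placed. The genes, lists and motifs were chosen with earlier results of these data known. Named peaks were the 3 highest of each gene, the one nearest to each start, and runs of at least 3 peaks. The peak just outside the EGFR window was chosen after its values were seen, as was the threshold at the highest 10.0% of the list. Alternatives were other windows, q-value thresholds, gaps, run sizes and start distances, membership by overlap, peaks without raised background, and the same chromosomes as reference. Scripts ran in Python 3.11.15 (scipy 1.17.1, numpy 2.4.6, pandas 2.3.3), with plots by matplotlib 3.10.9.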

Additional observations from a re-analysis of the deposited data

How the results depend on the processing

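Of 24 alternatives, 19 stayed within the range set for their result, 5 moved and 0 reversed. Counts of peaks or starts have no direction to reverse. A stricter q-value or a wider window can move such counts only in a fixed direction. At a q-value of at most 0.01 the number of peaks fell from 30 to 17 and the median fold enrichment rose from 4.12 to 4.72, beside 5.55 over all peaks at that threshold. Start peaks were found at 2 genes in place of 4 at a q-value of at most 0.05. The number of peaks in runs fell from 19 to 3 with gaps of up to 5 kb and to 5 with runs of at least 5 peaks, by construction, so the runs rest on the gap chosen. The density ratio lay between 6.89 (within 100 kb) and 10.0 (same chromosomes), against 8.38. Leaving out the EGFR peaks, an alternative chosen after seeing the data, gave a median fold enrichment of 4.09. No paired analysis was possible because a single library was analysed. With 12 to 83 fragments behind a summit and 1 library, whether the weaker peaks would recur cannot be said.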

Other observations

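Peaks farther out were counted by distance from the genes, an analysis chosen after seeing the data, with EREG, AREG and the stretch between them taken as 1 span. Over all 4 loci, the gene spans held 47.6 peaks per Mb (Poisson interval 28.7 to 74.4) and the flanks up to 50 kb away held 27.5 (13.7 to 49.2). Between 50 and 200 kb the density was 12.5 (6.996 to 20.6), and between 200 and 500 kb it was 11.7 (7.75 to 16.9), still above the 4.48 per Mb given for the rest of chromosomes 1 to 22 and X.

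The counts of the single loci are given as a description. Between 50 and 200 kb the Poisson interval was 0 to 12.3 per Mb at HBEGF and 11.5 to 52.5 at TGFA. At this distance the intervals of the 4 loci overlapped one another. Around HBEGF no peak lay between 50 and 200 kb from the gene on either side, and 5 lay closer. The EREG and AREG peaks all lay within the 90 kb that the genes and the stretch between them cover, with 0 in the 50 kb to either side and 1 between 50 and 200 kb. TGFA had 1 peak inside the gene, 3 within 50 kb, 8 between 50 and 200 kb and 12 between 200 and 500 kb. The highest fold enrichment was 8.44 between 50 and 200 kb and 6.11 between 200 and 500 kb. Both were below the 12.8 inside the gene. At EGFR 6 peaks lay between 50 and 200 kb, among them the one of 15.01 just beyond the window.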
